A study of Mus musculus with 12 samples.

Results

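The 10 genes described here encode receptors, adaptors, kinases and transcription factors of insulin signalling: Insr, Igf1r, Irs1, Irs2, Pik3r1, Akt1, Akt2, Foxo1, Foxo3 and Foxo4. They were taken by gene symbol from the array annotation and were selected on earlier results of the same knock-in against wild type comparison. The differences of these 10 genes between the genotypes are therefore a description, given with errors or intervals and with no p-value per gene. Counts of them past a limma threshold are given beside those of all genes, and nothing is read from these counts. All 10 had a probe, among 19057 genes with a probe of 1 gene symbol, and 22 probes carried their names. The samples were erythroblasts from mouse bone marrow, gated as positive for Ter119, an erythroid surface protein, and high for CD71, the transferrin receptor. One genotype was a cyclin E knock-in with the substitutions T74A and T393A, which remove sites needed for ubiquitination by the ligase subunit Fbw7, and the controls were wild type littermates. Both were on strain background 129, and the labels give no treatment, age or number of knock-in alleles. RNA was measured on 12 one-colour Illumina bead arrays, 6 per genotype.

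The receptors for insulin and for insulin-like growth factor are tyrosine kinases that phosphorylate the insulin receptor substrates. These adaptors recruit phosphoinositide 3-kinase, whose lipid product brings the kinase Akt to the membrane, and active Akt phosphorylates the Foxo transcription factors and keeps them out of the nucleus. Foxo factors in the nucleus activate genes of cell cycle arrest, antioxidant defence, autophagy and, in liver, Irs2 itself. In mouse erythroblasts Foxo3 is known for its role in resistance to oxidative stress and in terminal maturation, and in B cell precursors Foxo1 is known to activate Il7r and the Rag genes.

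The promoters of Irs2 and Foxo3 are shown because these genes had the most separate values between the genotypes among the 10, and that of Irs1, the other substrate, for comparison. Each is the 250 bases before the transcription start from RefSeq on build GRCm38.p6, written 5′ to 3′ on the strand of the gene. Irs2 lies at chr8:11008930-11009179 on the minus strand, Foxo3 at chr10:42276696-42276945 on the minus strand and Irs1 at chr1:82291440-82291689 on the minus strand. Capitals mark matches to TGTTTTG, the core of the insulin response element bound by Foxo factors, or to CACGTG, the E-box.
Irs2: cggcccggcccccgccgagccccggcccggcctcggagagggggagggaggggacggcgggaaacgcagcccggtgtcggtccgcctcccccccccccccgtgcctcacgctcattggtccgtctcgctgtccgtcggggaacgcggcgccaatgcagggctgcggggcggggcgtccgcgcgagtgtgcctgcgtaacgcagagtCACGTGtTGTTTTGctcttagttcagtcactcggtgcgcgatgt
Foxo3: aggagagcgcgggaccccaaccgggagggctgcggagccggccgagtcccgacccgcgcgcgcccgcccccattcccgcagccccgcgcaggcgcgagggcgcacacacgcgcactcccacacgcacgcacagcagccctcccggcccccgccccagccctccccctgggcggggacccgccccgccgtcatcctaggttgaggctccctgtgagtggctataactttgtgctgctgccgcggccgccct
Irs1: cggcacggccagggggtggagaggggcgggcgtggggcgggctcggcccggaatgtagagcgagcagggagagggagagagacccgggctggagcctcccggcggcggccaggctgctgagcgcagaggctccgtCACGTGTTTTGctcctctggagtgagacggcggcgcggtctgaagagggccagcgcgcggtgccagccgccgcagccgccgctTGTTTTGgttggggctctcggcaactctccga

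In the Irs2 promoter the TGTTTTG match lies 37 to 31 bases before the start, beside an E-box at 44 to 39 bases. The Irs1 promoter has TGTTTTG at 111 to 105 and at 32 to 26 bases before the start, and its E-box at 115 to 110 bases shares letters with the first of these. GTAAACA, the core of the Foxo consensus site, has no match in these 3 promoters. Searched on both strands, TGTTTTG, which reads CAAAACA on the other strand, was found in 5.56% of 32851 RefSeq promoters of the same length, CACGTG in 6.02% and GTAAACA, which reads TGTTTAC on the other strand, in 3.17%. Of the 10 genes, 8 matched the promoter table with 13 promoters in all. Among the others, 1 of the Akt1 promoters has GTAAACA on the opposite strand at 161 to 155 bases before the start, and Foxo1, Igf1r, Pik3r1 and Akt2 have no match to the 3 motifs. A match is a run of letters and not a measured binding site.

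Adjacent array numbers were taken as duplicates, because within the 6 resulting pairs the gene-centred values had correlations of 0.852 to 0.941, whereas arrays of 1 genotype from different pairs had -0.40 to 0.19. The mean of a pair served as 1 sample, 3 per genotype. Whether each sample is a separate animal is not stated in the labels, so a p-value here reflects only sample-to-sample spread, which may be technical. The mean intensity of an array ran from 134 to 247, 15988 to 18227 of 45281 probes per array lay above background, and the number of arrays limits the precision. Arrays 1 to 4, 5 to 8 and 9 to 12 formed blocks that held both genotypes. They took a median of 56.2% of the variance of a gene over the 6 samples, against 13.3% for the genotype. With 3 blocks and 2 genotypes, these shares are not on an equal footing, because values without structure also give the blocks more. What sets these blocks apart is not given in the labels. The blocks were read from array numbers and from these same values, which limits every fit below that includes them.

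Erythroid markers were bright, with Hba-a1, an alpha globin, at 15.05 and Alas2, the first enzyme of erythroid heme synthesis, at 15.04 (log2, mean of the 6 samples). The erythroid list, of which 8 of 12 genes were tested, had sample means of 11.98 to 12.54 in the wild type and 12.30 to 12.50 in the knock-in samples. Neutrophil markers were bright as well, with the granule protein genes S100a8 and S100a9 at 14.97 and 14.68, and the sample means of their list were 12.96 to 13.49 in the wild type and 12.82 to 13.46 in the knock-in samples. For B lineage markers the list mean was 8.33, 8.49 and 7.94 in the wild type and 7.40, 7.45 and 7.26 in the knock-in samples. All 12 tested B lineage genes had a lower mean in knock-in samples, but 0 of them passed the limma test over all genes. In the fit that included the blocks 3 passed, where 0.937% of all genes were called in either direction. At an unadjusted limma p under 0.05 there were 9, against 3.09% of all genes that were lower. Single samples overlapped between the genotypes for 2 of the 12. The other 10 were lower without overlap, where 6.47% of all genes were. Of 14 with a probe, 1 was not above background on any array. The summed level of these 12 genes was 3506 to 6471 in the wild type and 1683 to 2097 in the knock-in samples, as normalized intensity. The mean of 7 markers of mast cells, basophils and eosinophils was 9.22 to 9.75 in the wild type and 8.83 to 9.16 in the knock-in samples, with Prg2 brightest at 14.37. All 7 had a lower mean in knock-in samples, 3 of them at an unadjusted limma p under 0.05, where 3.09% of all genes were lower. Of the 7, 2 were lower without overlap of single samples, against 6.47% of all genes. In the limma test over all genes 0 of the 7 passed. In the fit that included the blocks 2 were called lower, where 0.937% of all genes were called in either direction. All tested markers of macrophages (9), of T and NK cells (4) and of endothelial and stromal cells (3) were also lower in the mean. The sample means of the macrophage, T and NK cell, and endothelial and stromal lists overlapped between the genotypes. Those of the mast cell, basophil and eosinophil list did not. Of the megakaryocyte markers, 3 were lower and 3 higher. The part of other cell types in the results below was not tested.

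Expression above background was measured for 6 of the 10 genes, which had a probe above the background limit on at least 6 of 12 arrays. They were Insr, Igf1r, Irs2, Pik3r1, Foxo1 and Foxo3, among 9388 genes tested. Irs2 and Foxo3 were higher in each knock-in sample than in each wild type sample. The values of Insr, Igf1r, Pik3r1 and Foxo1 overlapped between the genotypes. Over all genes limma called 8 genes, 0.0852% of those tested, at an adjusted p under 0.05, all higher in knock-in samples, and 0 of the 6 genes were among them. The lowest limma adjusted p of a gene that was lower in knock-in samples was 0.071.

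**Figure D1:**
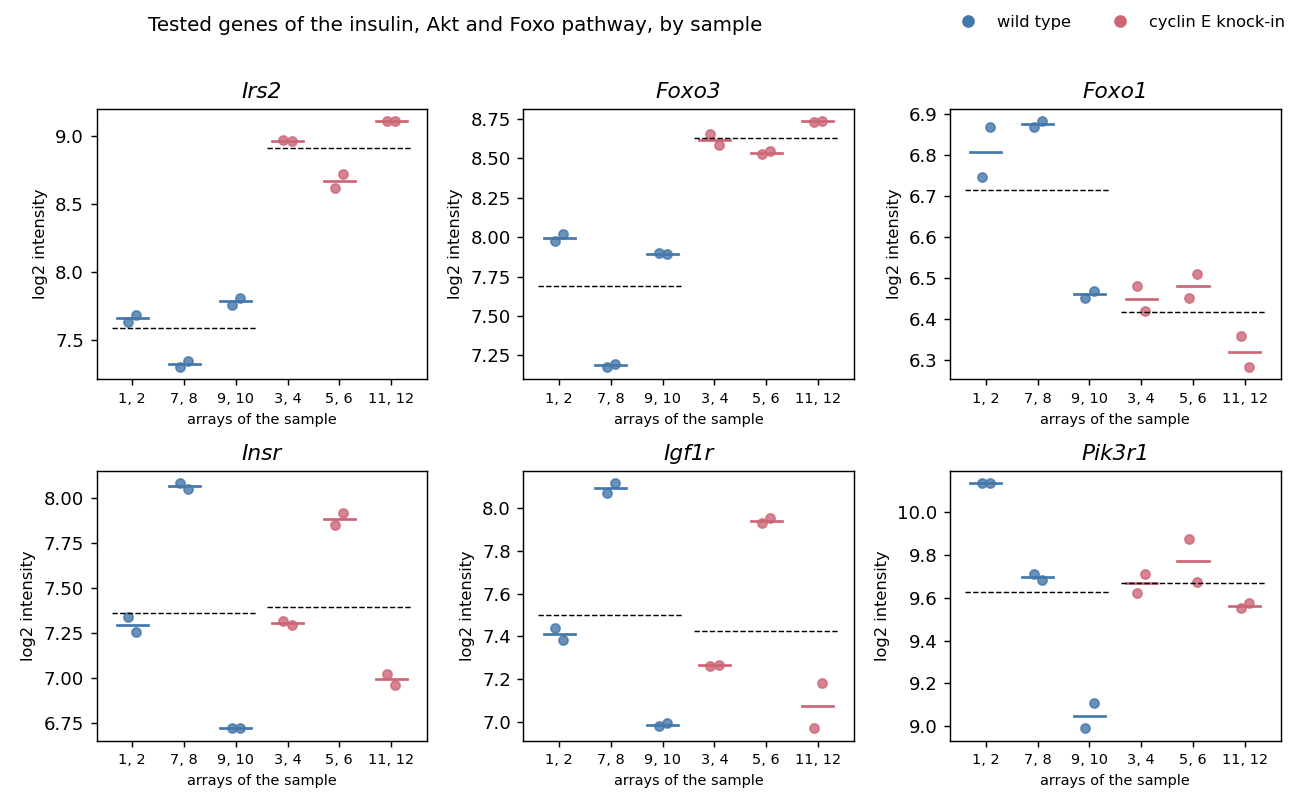
Log2 normalized intensity (vertical axis, not starting at 0 and scaled per gene) of the 6 measured genes by sample (horizontal axis, named by its 2 arrays). Points are single arrays, solid bars sample means and dashed lines genotype means; for Irs2 and Foxo3 all knock-in points lie above all wild type points, while Insr, Igf1r, Pik3r1 and Foxo1 overlap.

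Insr encodes the insulin receptor. Its log2 values were 7.30, 8.07 and 6.72 in wild type samples (arrays 1 and 2, 7 and 8, 9 and 10) and 7.30, 7.88 and 6.99 in knock-in samples (arrays 3 and 4, 5 and 6, 11 and 12). In both genotypes the sample from arrays 5 to 8 was the brightest and that from arrays 9 to 12 the dimmest, and the genotypes overlapped. The means were 7.36 ± 0.67 and 7.39 ± 0.45 (SD, n = 3 each), a difference of 0.03 ± 0.38 (SE). The genotype accounted for 0.113% of the variance of Insr over the samples and the blocks for 95.9%. This Insr probe has no transcript accession in the annotation, whereas the probe annotated to the RefSeq transcript of Insr was above background on 0 of 12 arrays and a probe from a cDNA clone on 3.

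Igf1r encodes the receptor for insulin-like growth factor 1. Its brightest probe read 7.41, 8.09 and 6.99 in wild type samples and 7.26, 7.94 and 7.08 in knock-in samples, in the same array order. These values had the same order over the blocks as those of Insr, with arrays 5 to 8 brightest and arrays 9 to 12 dimmest. The difference was -0.07 ± 0.34 (SE), and the genotype accounted for 0.722% of the variance, against 97.5% for the blocks. A second Igf1r probe of the same transcript also differed by -0.07, with values of 6.68, 7.08 and 6.87 in the wild type and 6.86, 6.80 and 6.78 in the knock-in samples. On this second probe the normalized value of arrays 5 and 6 was not above that of arrays 3 and 4. Before normalization it was, at 68.8 against 57.9 intensity units. In normalized values the 2 Igf1r probes thus share the size of the difference but not the order of the samples. The other Igf1r probes were above background on 5 and 3 of 12 arrays.

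Irs2 encodes the substrate that carries insulin signals in liver and beta cells and is itself induced by Foxo factors in liver. Its log2 values were 7.66, 7.33 and 7.79 in wild type samples and 8.97, 8.67 and 9.11 in knock-in samples. The lowest knock-in value lay above the highest wild type value, and the single Irs2 probe was above background on all 12 arrays. Before normalization the same probe read 140, 120 and 95.1 intensity units in wild type samples and 456, 490 and 421 in knock-in samples. The means were 7.59 ± 0.24 and 8.91 ± 0.22 (SD, n = 3 each), a difference of 1.32 ± 0.17 (SE), or 2.50-fold with a 95% interval of 1.89 to 3.31. Within the blocks the knock-in sample was higher by 1.30 on arrays 1 to 4, by 1.34 on arrays 5 to 8 and by 1.32 on arrays 9 to 12. The genotype accounted for 92.5% of the variance of Irs2, the blocks for 7.50% and the remainder for 0.0142%.

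Irs1, which encodes the other main substrate, was above background on 1 wild type and 2 knock-in arrays, with intensities between 1.6 and 9.2 units before normalization. Its probe therefore gave no level that could be compared, and the Irs2 values have no counterpart for Irs1.

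**Figure D2:**
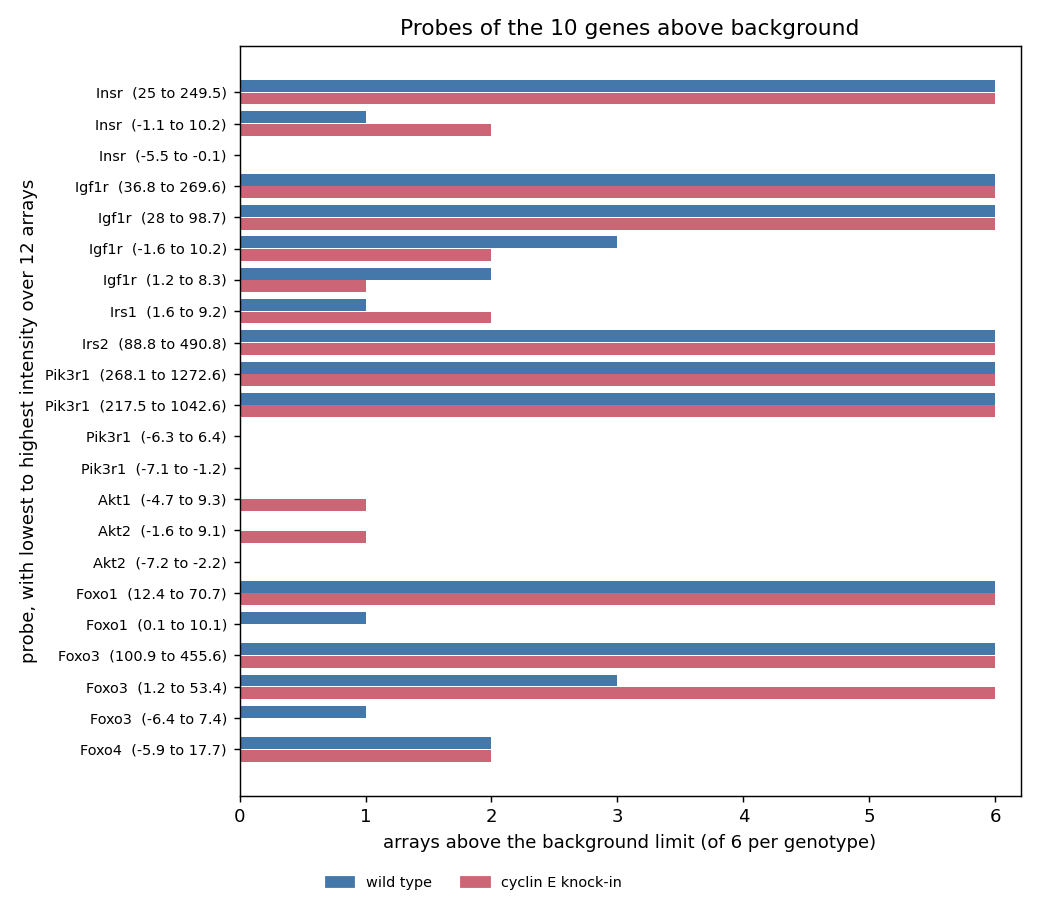
Number of arrays, of 6 per genotype, on which each of the 22 probes of the 10 genes lay above the background limit (horizontal axis); each row is a probe with its lowest and highest intensity before normalization, with bars in blue for wild type and red for knock-in. The single Irs2 probe and the brightest Foxo3 probe reach 6 arrays in both genotypes, the second Foxo3 probe 3 wild type and 6 knock-in arrays, and no probe of Irs1, Akt1, Akt2 or Foxo4 more than 2 in a genotype.

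Pik3r1 encodes p85 alpha, the regulatory subunit through which phosphoinositide 3-kinase binds the substrates. Its log2 values were 10.14, 9.70 and 9.05 in wild type samples and 9.67, 9.77 and 9.56 in knock-in samples. The wild type samples held both the highest and the lowest of the 6 values, and the knock-in samples lay between them. The difference was 0.04 ± 0.27 (SE), with a 95% interval of the fold from 0.661 to 1.6, and within the blocks it ran from -0.47 on arrays 1 to 4 to 0.52 on arrays 9 to 12. A second Pik3r1 probe differed by 0.08, and 2 further probes were above background on 0 of 12 arrays.

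The Akt kinases could not be compared. Akt1, which encodes the isoform found in most tissues, was above background on 0 wild type arrays and 1 knock-in array. Akt2, the isoform known for glucose uptake in muscle and fat, had a probe above background on 0 wild type arrays and 1 knock-in array and a second on 0 of 12. Signal not well above background is a limit of these probes and gives no level for either genotype.

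Foxo3 encodes the Foxo factor known for its role in erythroid cells. On its brightest probe the log2 values were 8.00, 7.19 and 7.90 in wild type samples and 8.62, 8.54 and 8.73 in knock-in samples. All knock-in samples were above all wild type samples, and the wild type samples varied more, with the sample from arrays 7 and 8 the lowest. The intensities before normalization were 190, 103 and 106 in the wild type and 344, 438 and 309 in the knock-in samples. The means were 7.69 ± 0.44 and 8.63 ± 0.10 (SD, n = 3 each), a difference of 0.94 ± 0.22 (SE), or 1.91-fold with a 95% interval of 1.33 to 2.76. Within the blocks the difference was 0.62, 1.35 and 0.84, so its size varied more than that of Irs2 while its sign did not.

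The other Foxo3 probes gave smaller differences. A second, dimmer probe annotated to the same transcript was above background on 3 wild type and 6 knock-in arrays and differed by 0.25. Its values were 6.16, 5.99 and 6.19 in the wild type and 6.55, 6.11 and 6.44 in the knock-in samples, and the knock-in sample from arrays 5 and 6 fell within the wild type range. The third probe was above background on 1 wild type and 0 knock-in arrays and differed by -0.04. With the mean of the kept probes the Foxo3 difference was 0.59.

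Foxo1, the Foxo factor known for its role in B cell development, had log2 values of 6.81, 6.87 and 6.46 in wild type samples and 6.45, 6.48 and 6.32 in knock-in samples. The wild type sample from arrays 9 and 10 lay among the knock-in samples, and the other 2 wild type samples lay above them. The means were 6.71 ± 0.22 and 6.42 ± 0.08 (SD, n = 3 each), a difference of -0.30 ± 0.13 (SE), or 0.815-fold with a 95% interval of 0.652 to 1.02. The difference was -0.36, -0.39 and -0.14 within the blocks. The probe was dim, at 12.4 to 70.7 intensity units, and the offset of 50 added before the logarithm understates the fold of such genes. A second Foxo1 probe was above background on 1 wild type and 0 knock-in arrays.

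Beside Foxo1, the B lineage list mean was lower in every knock-in sample than in every wild type sample, at 8.25 ± 0.29 in the wild type and 7.37 ± 0.10 in the knock-in samples (SD, n = 3 each). Samples of many cells give one value each, so fewer cells of a type and less RNA per cell cannot be told apart. Of the 7 genes known as Foxo1 targets in lymphocytes, 4 were tested, and all 4 had a lower mean in knock-in samples, with a median difference of -0.34 against -0.03 over all genes. Il7r, the receptor for a growth factor of B cell precursors, had values of 7.41, 7.84 and 6.71 in the wild type and 6.72, 6.86 and 6.63 in the knock-in samples. Rag1, which cuts DNA for antigen receptor recombination, had values of 6.76, 6.60 and 6.18 in the wild type and 6.14, 6.21 and 6.12 in the knock-in samples. For Foxo1, Il7r and Rag1 alike, the wild type sample from arrays 9 and 10 was the lowest of its genotype. This was not particular to them, because the same sample was also the lowest for Insr, Igf1r and Pik3r1, though not for Irs2 or Foxo3. Neither target passed the test, with differences of -0.58 ± 0.27 for Il7r (SE, limma adjusted p = 0.65) and -0.35 ± 0.16 for Rag1 (limma adjusted p = 0.643). A dimmer Il7r probe differed by -0.01. The part of B lineage cells in the Foxo1 values was not tested.

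**Figure D3:**
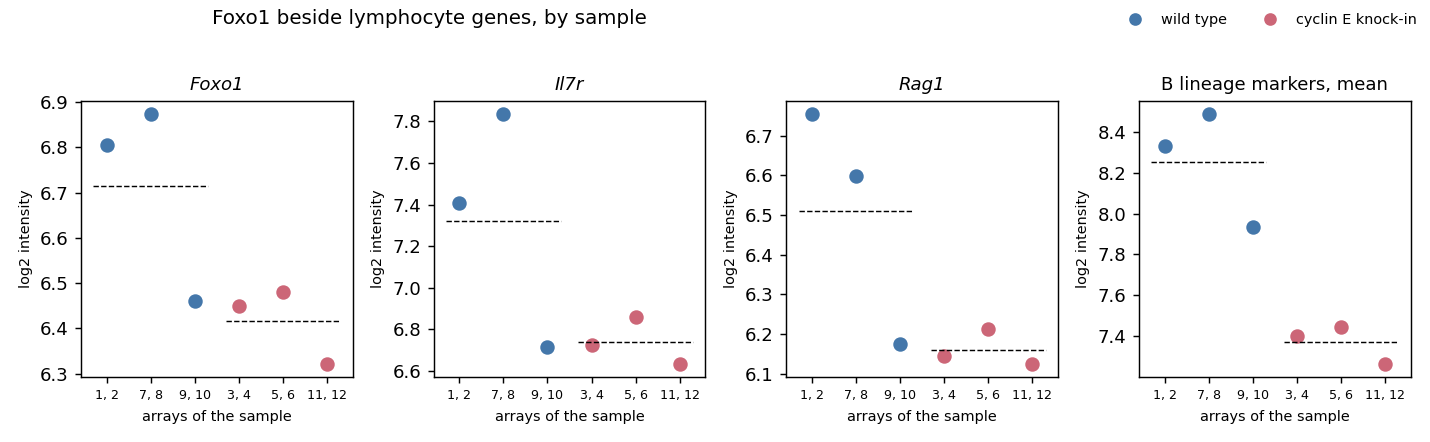
Log2 normalized intensity (vertical axes, not starting at 0) of Foxo1, Il7r, Rag1 and the mean of the 12 tested B lineage markers by sample (horizontal axis, named by its 2 arrays), with dashed lines at the genotype means. The B lineage mean is 7.94 to 8.49 in the wild type and 7.26 to 7.45 in the knock-in samples, and for Foxo1, Il7r and Rag1 the wild type sample from arrays 9 and 10 lies among the knock-in samples. Il7r and Rag1 had the smallest limma p of the 4 tested lymphocyte targets, and the others, Klf2 and Ccr7, are not drawn.

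Foxo4 was above background on 2 wild type and 2 knock-in arrays, with intensities from -5.9 to 17.7 units, and was not compared. Among the Foxo factors, levels were therefore measured for Foxo1 and Foxo3.

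Of the 6 measured genes, 2 had an unadjusted limma p under 0.05 and were higher in knock-in samples, where 5.56% of all genes did so, and 0 were lower, against 3.09% of all genes. The genotypes did not overlap for 2 of the 6 with knock-in higher, against 7.23% of all genes, and for 0 with knock-in lower, against 6.47%. In a limma fit that included the blocks, 88 genes or 0.937% of all genes were called, 1 of the 6 among them. Because the 10 genes were selected on this comparison, nothing is read from these counts. The duplicate arrays of a sample differed by at most 0.21 on the log2 scale for each of the 6 genes, and for Irs2 and Foxo3 by at most 0.10 and 0.07.

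The rest of the pathway was described from 6 lists with 132 genes, of which 123 had a probe and 95 were tested. Over all genes 1 of these 95, Cdkn1a, rose in knock-in samples and 0 fell at a limma adjusted p under 0.05. At an unadjusted p under 0.05 there were 12 higher and 6 lower, where 5.56% and 3.09% of all genes were, and the median difference was -0.02, close to the -0.03 of all genes. These lists were also drawn up with earlier results known.

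Among ligands, other receptors and adaptors, 13 of 21 genes were tested and 0 passed, with 5 positive and 8 negative differences and a median of -0.09. The smallest p belonged to Socs3, a feedback inhibitor of cytokine and insulin receptors, at 0.42 ± 0.18 (SE, limma adjusted p = 0.578), and to Igf2r, which clears insulin-like growth factor 2, at -0.12 ± 0.09 (limma adjusted p = 0.864). Among subunits of phosphoinositide 3-kinase and the phosphatases that oppose it, 13 of 16 were tested and 0 passed, with 10 negative differences and a median of -0.13. Pik3ap1, an adaptor for this kinase in B cells, differed by -0.44 ± 0.12 (limma adjusted p = 0.313), and Inpp5k, an inositol phosphatase, by -0.35 ± 0.11 (limma adjusted p = 0.387). The 3 dimmer Inpp5k probes differed by -0.18, -0.19 and 0.07.

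Among activators, antagonists and substrates of Akt, 21 of 27 genes were tested and 0 passed, with a median of -0.003. Trib2, a pseudokinase known in human melanoma to restrain FOXO3, had values of 8.16, 8.15 and 7.73 in the wild type and 7.22, 7.12 and 7.14 in the knock-in samples. Every knock-in sample was below every wild type sample, but its difference of -0.85 ± 0.14 (SE) did not pass (limma adjusted p = 0.122). Rheb, the GTPase that activates mTORC1, differed by 0.38 ± 0.12 (limma adjusted p = 0.34).

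Among partners and modifiers of Foxo factors, 18 of 22 genes were tested and 0 passed, with 9 positive and 9 negative differences. Sirt1, a deacetylase of Foxo3, had values of 7.55, 7.40 and 6.74 in the wild type and 8.44, 8.55 and 8.23 in the knock-in samples. The genotypes did not overlap, and the difference of 1.18 ± 0.22 (SE) had a limma adjusted p of 0.143, or 0.0473 with the blocks as a term. Ywhah, a 14-3-3 protein of the family that holds phosphorylated Foxo factors in the cytoplasm, differed by 0.66 ± 0.13 (limma adjusted p = 0.15).

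**Figure D4:**
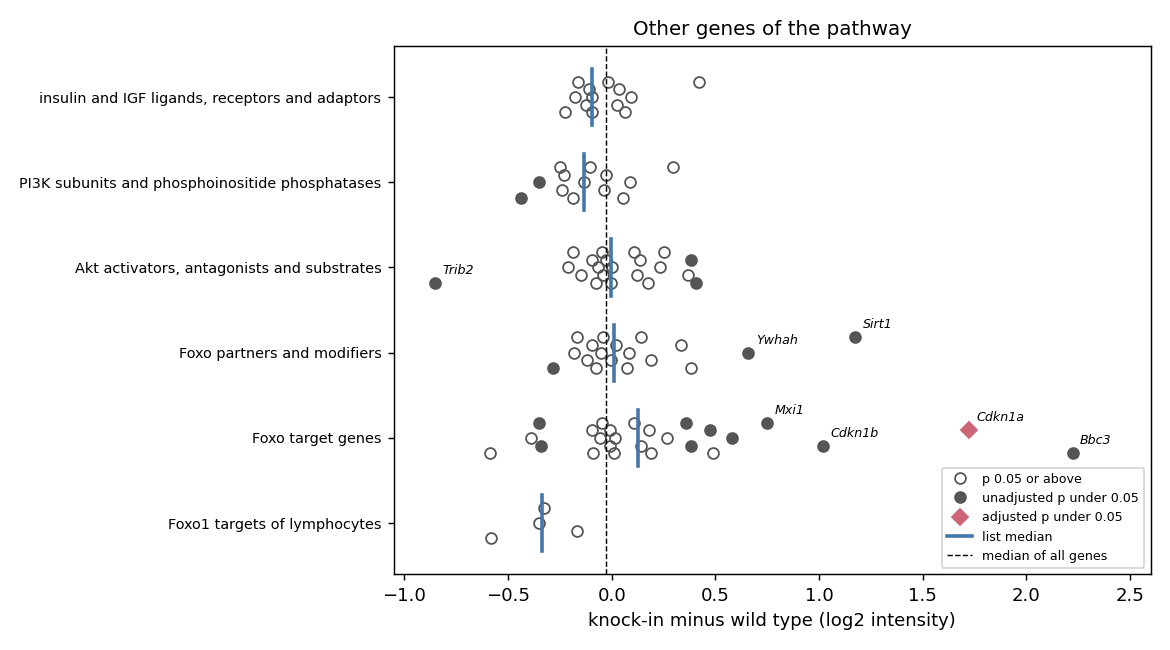
Knock-in minus wild type differences (horizontal axis, log2) of the 95 tested genes in 6 lists of the pathway, 1 point per gene, filled at an unadjusted limma p under 0.05 and a red diamond at an adjusted p under 0.05, with blue bars at list medians and a dashed line at the median of all genes. The diamond is Cdkn1a at 1.73, Bbc3 lies at 2.22 and Trib2 at -0.85.

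Among genes known as Foxo targets in other tissues, 26 of 39 were tested, with 16 positive and 10 negative differences and a median of 0.13. Cdkn1a, the cell cycle inhibitor p21, rose from 6.89, 6.74 and 7.06 in wild type samples to 8.53, 8.81 and 8.53 in knock-in samples. The genotypes did not overlap, and the rise was 1.73 ± 0.13 (SE), or 3.31-fold (limma adjusted p = 0.0194). Dimmer Cdkn1a probes differed by 1.30 and 0.60. Leaving out 1 sample at a time, Cdkn1a passed without the wild type sample from arrays 9 and 10 (limma adjusted p = 0.047) and did not pass without any 1 of the other 5 (up to 0.192). Bbc3, the apoptosis inducer Puma, differed by 2.22 ± 0.27 (limma adjusted p = 0.0753, and 0.0473 in the fit that included the blocks). Its dimmer probes differed by 0.58 and 0.41.

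Other Foxo targets are named here after their values were seen, because they had an unadjusted limma p under 0.05. Of the 26 tested, 8 were higher and 2 lower at this threshold, against 5.56% and 3.09% of all genes. Besides Cdkn1a and Bbc3, the higher ones were Cdkn1b, the cell cycle inhibitor p27, at 1.02, Mxi1, an antagonist of Myc, at 0.75, and Sod2, the mitochondrial superoxide dismutase, at 0.58. They also included Map1lc3b, an autophagosome protein, at 0.47, and the stress-induced sestrins Sesn1 and Sesn2 at 0.38 and 0.36. The lower ones were Bnip3l, which is needed to clear mitochondria from maturing red cells, at -0.35, and Gadd45a, a DNA damage response gene, at -0.34. Of these higher and lower genes other than Cdkn1a and Bbc3, 0 passed over all genes as reported. Cdkn1b passed in the fit that included the blocks (limma adjusted p = 0.0276). Dimmer probes differed by 0.31 for Cdkn1b, 0.06 for Sesn2 and -0.11 for Gadd45a, and with the mean of probes the differences were 0.66 for Cdkn1b, 0.21 for Sesn2 and -0.22 for Gadd45a. Cdkn1a, Bbc3, Sesn1, Sesn2 and Gadd45a are also known as targets of p53. The arrays measure RNA and not protein, so the location and phosphorylation of the Foxo factors were not measured.

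Genes whose values over the 6 samples were most like those of a member were found by the root mean square difference of log2 values centred on the mean of the 6 samples. The samples are few and share their arrays, so this is a description. These genes were picked as the most alike of all tested genes. Their small differences from the member and their genotype pattern therefore follow from that choice, and nothing is read from them. For Foxo3 they were Lmna, which encodes lamins A and C, at 0.049, Tent5c, a poly(A) polymerase, at 0.070, and Sertad1, a regulator of cyclin D kinases, at 0.077, against a median of 0.576 over all genes. Like Foxo3, each was lowest in the wild type sample from arrays 7 and 8 and had 3 knock-in samples close together. For Irs2 they were Slc30a1, a zinc exporter, at 0.105, Sox12, a transcription factor, at 0.136, and Tmpo, which encodes lamina-associated polypeptides, at 0.179, against a median of 0.724. For Foxo1 they were Map7, a microtubule-associated protein, at 0.037, Mcoln2, an endolysosomal channel, at 0.056, and Cort, a neuropeptide, at 0.060, against a median of 0.254. Among these alike genes only Slc30a1 passed over all genes (limma adjusted p = 0.0358), and its call was lost in 8 of 17 refits under other settings. Mcoln2 and Cort were dim, with wild type means of 6.34 and 6.40. Other kept probes differed between the genotypes by -0.08 for Map7 (-0.25 on the probe used), -0.19 for Cort (-0.22) and 0.24 for Sox12 (1.16). Those of Lmna differed by 0.32 to 0.96 (0.92) and those of Tmpo by 0.44 to 1.03 (1.04).

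**Figure D5:**
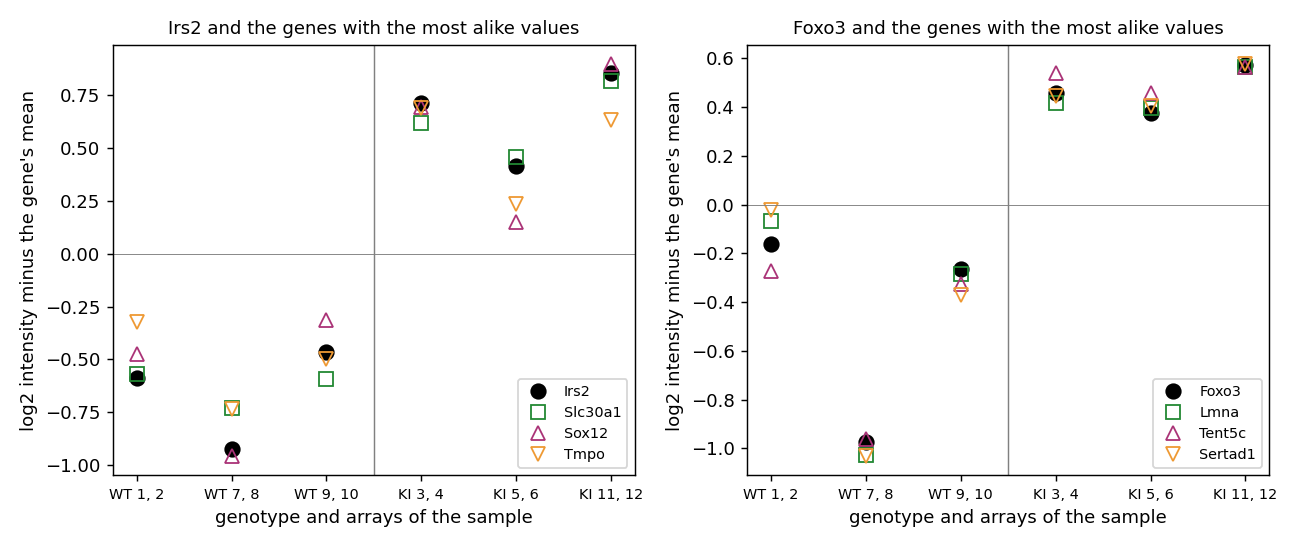
Log2 values minus the mean of the gene over the 6 samples (vertical axis) for Irs2 and Foxo3 (filled circles) and the 3 genes most like each (open symbols), by genotype (WT, wild type, and KI, knock-in) and arrays of the sample. Lmna differs from Foxo3 by a root mean square of 0.049 and Slc30a1 from Irs2 by 0.105. All 8 genes are above their mean in each knock-in sample and below it in each wild type sample, which largely follows from the choice by likeness.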

How the data were processed

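The deposited table that was used holds the authors' intensity values for 45281 probes and 12 arrays, with background already subtracted as read from its negative values (33.05% to 37.02% per array). The submitters' processing notes name GenomeStudio without a version. A second deposited table, the authors' processed intensity values, served as an alternative only. Genotypes came from the sample titles. The 10 genes and all lists were chosen with earlier results of these data known.

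Intensities were corrected with normexp (offset 50), quantile-normalized and expressed as log2, and the offset understates the folds of dim genes. The background limit of an array was the 90th percentile of the sizes of its negative values, 6.6 to 7.7 units, and probes above it on at least 6 arrays were kept. Of the probes, 34885 had 1 gene symbol, 18 several and 10378 none. The 16894 kept probes included 14317 with 1 symbol, for 9388 genes, each represented by its brightest probe. The RefSeq table held the Entrez identifiers of 34807 probes, and 0 symbols were updated. The test was limma's (version 3.58.1, R 4.3.3, lmFit and eBayes) on 3 against 3 samples, and p-values were adjusted by Benjamini-Hochberg across the 9388 genes with 0.05 as the threshold. The code was also run on simulated data with independent noise and no blocks, so that run checks the code and not its performance on these data. Shares of variance are sums of squares of genotype, block and remainder. Named are all 10 genes with their probes, pathway genes past the threshold, the 2 with the smallest p per list, 3 genes most like Foxo3, Irs2 and Foxo1, and up to 2 brightest genes of a marker list. No source used here gives the array's genome build, so the coordinates printed are those of the RefSeq promoters. Figures were drawn with matplotlib 3.10.9. Alternatives were other background, scaling, filter, probe and model settings, and each sample left out in turn.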

Additional observations from a re-analysis of the deposited data

How the results depend on the processing

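Over 17 alternatives the Irs2 difference stayed positive (1.19 to 1.44), as did that of Foxo3 (0.59 to 1.09), and that of Foxo1 stayed negative (-0.50 to -0.22, the lowest under 75th percentile scaling, which moved the median of all genes to -0.18). Insr was positive in 13 and negative in 4 (-0.29 to 0.38), Igf1r positive in 3 and negative in 14 (-0.33 to 0.23), and Pik3r1 positive in 15 and negative in 2 (-0.25 to 0.30). Of the 6 measured genes, 2 passed with 12 arrays as samples, 2 with pairs as a random block, 1 with a term for the blocks of 4 arrays, and 0 with any sample left out; because these genes were selected on this comparison, nothing is read from these counts.

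Of all genes, 8 were called higher and 0 lower. Higher calls numbered 536 with 12 arrays as samples, 237 with pairs as a random block, 63 with the blocks as a term, 16 with eBayes trend and robust, and 0 to 4 with a sample left out. Lower calls numbered 1 under 75th percentile scaling, 1 with the mean of probes, 324 with 12 arrays as samples, 46 with the random block, 25 with the blocks as a term, and 0 to 2 with a sample left out. Other pathway genes called higher, 1 as reported, numbered 2 under 75th percentile scaling, 2 for probes above background on all 12 arrays, 13 with 12 arrays as samples, 6 with the random block, 4 with the blocks, 2 with trend and robust, and 0 to 1 with a sample left out. Lower ones numbered 6 with 12 arrays as samples and 1 with the random block. Treating arrays as samples counts duplicates as independent, and the cause of the other changes was not tested. For 29 other named genes, 490 refits kept each direction, with 13 calls lost and 40 gained. No paired analysis was possible from the labels because the genotypes share no replicate numbers in them, and the fit with the blocks pairs samples by a grouping read from array numbers and values. The 4 genes near background have no level here, and 3 samples per genotype limit all estimates.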
